A study of Chlamydomonas reinhardtii with 4 samples.

Results

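CRD1 (CHLRE_07g346050v5), CPX1 (CHLRE_02g085450v5) and HYDA1 (CHLRE_03g199800v5) are genes of the green alga Chlamydomonas reinhardtii that are known as targets of the transcription factor CRR1. They were found on the slides by these gene identifiers, and were represented by 4 printed cDNA clones, 1 each for CRD1 and CPX1 and 2 (here clone a and clone b) for HYDA1. These are 4 of 2880 printed clones, and 3 of the 100 genes that the platform annotation names singly. The annotation and the RefSeq table give the genes by locus tag only. The symbols are those assigned to these locus tags for this comparison, and no value on the slides checks them. The genes were chosen with their values on these slides known, so the treatment values below are a description and carry no test.

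Each of the 4 spotted slides compared RNA of rose bengal-treated cells with RNA of untreated cells, both of the laboratory's wild-type strain 4A+. Treated cultures received 2 µM rose bengal, a photosensitiser of singlet oxygen, and untreated cultures received an equal volume of water. Both were 100 mL cultures grown photoautotrophically at 50 µmol photons per m2 per s, and RNA was harvested 2 h after the addition, to find genes that singlet oxygen may regulate. Slides 1 and 2 carried biological replicate 1 and slides 3 and 4 biological replicate 2, and the dyes were switched within each pair: Cy5 marked treated RNA on slides 1 and 3, Cy3 on slides 2 and 4.

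CRR1 is a copper-responsive factor that activates its targets when copper is scarce, and many of them also when oxygen is scarce. CRD1 encodes the di-iron subunit of the cyclase that closes the fifth ring of chlorophyll. CPX1 encodes coproporphyrinogen oxidase, which acts earlier in the same tetrapyrrole pathway and uses oxygen as a substrate. HYDA1 encodes a chloroplast iron hydrogenase, which makes hydrogen in cells without oxygen.

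The deposited values are log ratios of the 2 dyes, read here as log2, so they give a difference between treated and untreated cells and no transcript level of either. The sources used here do not give which dye is in the numerator. The values were read as Cy5 over Cy3 and those of slides 2 and 4 were turned, so that a negative value means lower in treated cells. If the columns are Cy3 over Cy5 every turned sign changes, and if the authors already gave every slide as treated over untreated, the unturned means given further on take the place of the turned ones. All 64 spot values of the 4 clones (4 spots on each of 4 slides) were present, which was so for 1575 of the 2880 printed clones. The share of all spots that were measured was 92.4%, 92.2%, 82.8% and 81.4% on slides 1 to 4. Slide values below are means of 4 spots after each slide was centred on its median clone, and spot values are as deposited apart from the turning.

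The 4 clones had turned means between -0.23 and -0.025 on the log2 scale, all below 0, with a median of -0.081. Over the 2597 clones measured on all 4 slides the median was 0.0048, and 47.4% had a mean below 0. CRD1 lay farthest from 0, CPX1 next, and the HYDA1 clones nearest. The ranges of the 2 biological replicates overlapped for each pair of neighbours in this order. None of the 4 clones was among the 21 of 2597 clones (0.809%) that passed limma's test for treatment at an adjusted p of 0.05. The smallest mean among those 21 had a size of 0.37.

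CRD1 read -0.45, -0.25, -0.018 and -0.20 on slides 1 to 4. It was below 0 on every slide, farthest on slide 1 and close to 0 on slide 3. Biological replicate 1 gave -0.35 and replicate 2 gave -0.11, with a mean of -0.23 ± 0.17 (SD, n = 2). On the log2 reading this is a ratio of treated to untreated cells of 0.853, a 1.17-fold difference. A larger mean, in either direction, was found for 6.24% of the other clones, and for 10 of the other named ones. Leaving out slide 1, in a fit of the slides with a dye term, gave -0.12. Such a fit weights the slides left unequally, so this is not their plain mean.

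The spots of CRD1 spread more than those of most clones. On slide 1 its spots read -0.69, -0.30, -0.61 and -0.15 in grids 1 to 4, and on slide 2 they read -0.25, -0.28, -0.27 and -0.20. On slide 3 they read 0.032, -0.30, 0.26 and -0.032, which fall on both sides of 0, and on slide 4 they read -0.34, 0.033, -0.19 and -0.34. Of its 16 spot values 13 were below 0. The SD between spots was 0.255, 0.035, 0.23 and 0.175 on slides 1 to 4, where the median clone had 0.137, 0.043, 0.092 and 0.109. On slides 1, 3 and 4, 90.4%, 94.0% and 80.9% of clones had a smaller SD, and on slide 2 only 36.8%. The near-zero value on slide 3 is thus an average of spots with opposite signs, whereas the spots of slide 2 lay close together.

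CPX1 read -0.020, -0.21, -0.099 and -0.061 on slides 1 to 4. It too was below 0 on all slides, with the value nearest 0 on slide 1, where CRD1 was lowest. Biological replicates 1 and 2 gave -0.11 and -0.080, and the mean was -0.10 ± 0.023 (SD, n = 2), a 1.07-fold difference. This SD leaves out the spread between the 2 slides of a pair, which was wider than that between the replicates. A larger mean was found for 23.7% of the other clones. Without slide 2, the fit with a dye term gave -0.060.

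The spots of CPX1 agreed more closely than those of CRD1. They ranged from -0.25 to -0.18 on slide 2 and from -0.12 to -0.056 on slide 3, all below 0. On slide 4 they ranged from -0.14 to 0.0074, and on slide 1 from -0.08 to 0.16. In all, 14 of its 16 spot values were below 0. The SD between spots on slide 3 was 0.031, and 6.68% of clones had a smaller one there. On slide 1 a single spot, in grid 2, lay above 0, and the other 3 read -0.08, -0.07 and -0.03.

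**Figure D1:**
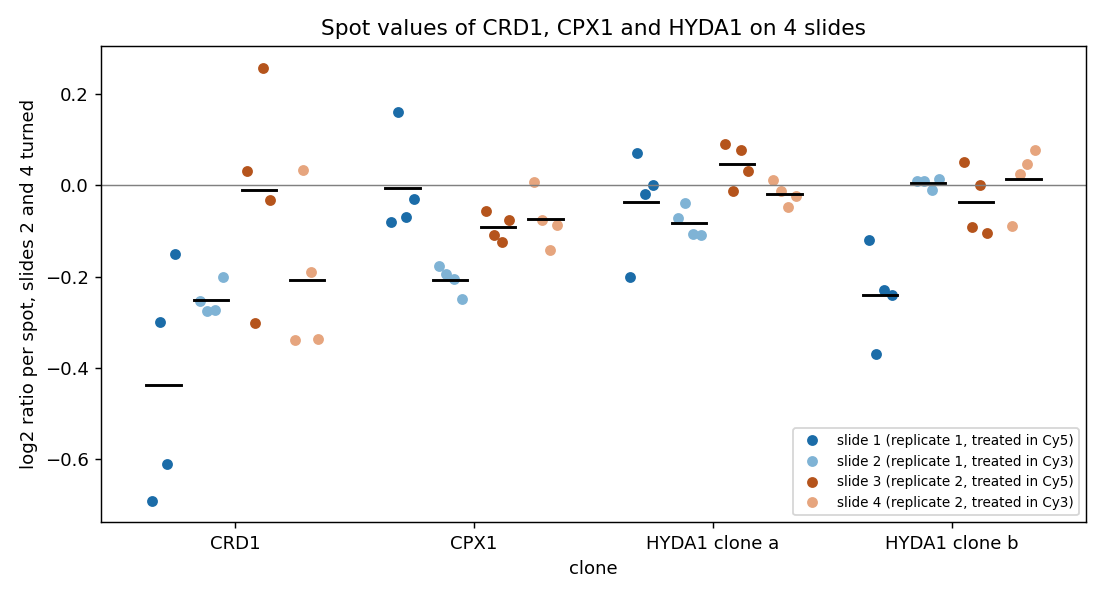
Log2 ratio of each spot (vertical axis, slides 2 and 4 turned) for the 4 clones (horizontal axis), coloured by slide, with a black line at the mean of the 4 spots of a slide. CRD1 spots reach from -0.69 to 0.26 and spread most on slides 1 and 3, while 14 of 16 CPX1 spots lie below 0 and the HYDA1 spots lie on both sides of it.

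HYDA1 was measured by 2 clones with different sequence tags. Clone a read -0.053, -0.081, 0.039 and -0.0054 on slides 1 to 4, so its slides fell on both sides of 0. Its replicates gave -0.067 and 0.017, and its mean was -0.025 ± 0.059 (SD, n = 2). The mean was smaller than this SD, and 71.6% of the other clones had a larger one. Its spots on slide 4, between -0.048 and 0.012, had an SD of 0.025, below that of most clones there.

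Clone b read -0.26, 0.0062, -0.044 and 0.027 on slides 1 to 4, with 1 slide far below 0 and the others near it. Its replicates gave -0.12 and -0.0080, and the mean was -0.066 ± 0.082 (SD, n = 2), again smaller than its SD. Without slide 1, the fit with a dye term gave -0.013 for clone b and -0.0022 for clone a, which are not plain means of the slides left. All 4 spots of clone b were below 0 on slide 1, from -0.37 to -0.12, while on slide 2 all lay between -0.0098 and 0.014. Of 16 spot values, 8 were below 0 for clone b and 10 for clone a, where 1 more was exactly 0.

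The difference between the HYDA1 clones varied by slide. Clone a minus clone b was 0.20, -0.087, 0.082 and -0.033 on slides 1 to 4, and 0.041 ± 0.023 in the mean (SD, n = 2). The sign of the difference was positive on both slides with treated RNA in Cy5 and negative on both with treated RNA in Cy3. Averaged over its clones, HYDA1 read -0.15, -0.037, -0.0023 and 0.011 on slides 1 to 4, with a mean of -0.046 ± 0.071 (SD, n = 2). The turned means of the other named genes with more than 1 measured clone spanned 0.15 for CHLRE_01g010000v5 and 0.037 for CHLRE_06g259900v5. Their unturned means spanned more, 0.27 and 0.29, as did those of the HYDA1 clones, 0.10.

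CRD1 and CPX1 were below 0 on all 4 slides, 2 of 4 clones, as were 186 of 2597 clones (7.16%) and 11 of the 103 named ones (10.7%). In both biological replicates 3 of the 4 clones were below 0, against 26.9% of all clones, and HYDA1 clone a was not. The choice of genes used these signs, so the counts are given as a description.

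Without turning, the mean of the 4 slides holds the difference between the dyes, or the treatment if the authors already gave every slide as treated over untreated. CRD1 then averaged -0.0065 ± 0.13, CPX1 0.037 ± 0.079, HYDA1 clone a 0.018 ± 0.0055 and HYDA1 clone b -0.083 ± 0.067 (SD, n = 2 each). None of the 4 passed limma's test of this mean (adjusted p of 0.966, 0.734, 0.86 and 0.412), nor did any of the 2597 clones (0%), while 568 (21.9%) and none of the 4 had an unadjusted p under 0.05. The 95% intervals reached from -0.16 to 0.15 for CRD1, from -0.096 to 0.17 for CPX1, from -0.10 to 0.14 for clone a and from -0.21 to 0.047 for clone b. For CRD1 and CPX1, one sign on all slides after turning limits how large the unturned mean can be, so these 2 tests are not free of the choice of genes. For CRD1 the 2 replicates had unturned means of opposite sign, -0.10 and 0.088. For HYDA1 clone b the unturned mean was larger in size than the turned one. The SDs of the unturned means leave out the spread between the 2 slides of a pair. That of HYDA1 clone a was small, although its unturned values lay on both sides of 0, with -0.053 on slide 1 and 0.039 on slide 3.

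**Figure D2:**
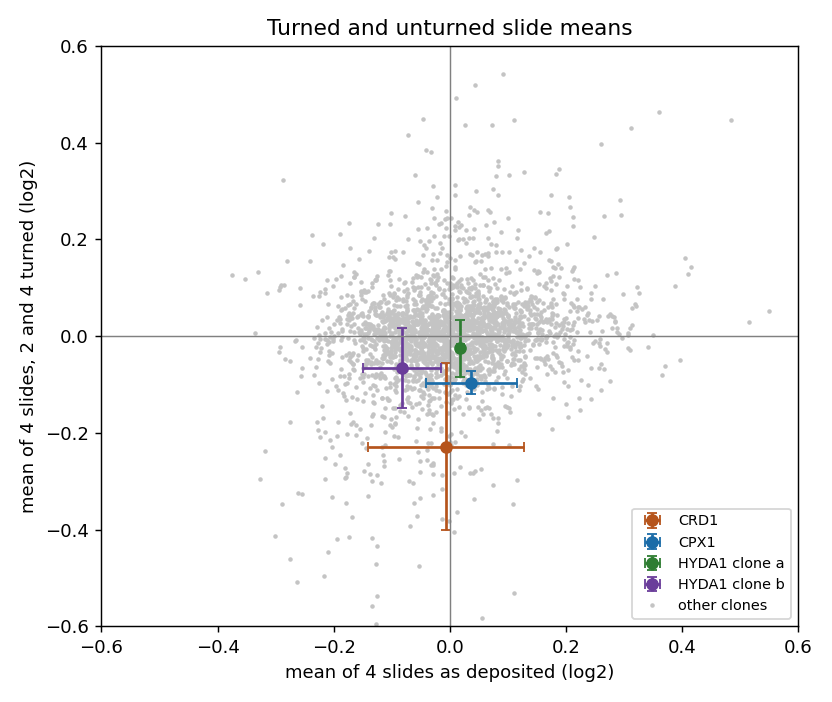
Mean of the 4 slides as deposited (horizontal axis, log2) against the mean with slides 2 and 4 turned (vertical axis, log2), for the 4 clones with bars of 1 SD over 2 biological replicates, and for the other clones as grey points; 19 clones lie outside the axes. CRD1 lies at -0.23 on the vertical and near 0 on the horizontal axis, and the others lie within the bulk of clones.

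The slides also held other genes of a list of 13 copper and hypoxia genes, drawn up by locus tag around CRR1. Of these 8 were on the slides, the 3 described above and 5 more with 1 clone each. The list is not one of targets alone, as CHLRE_03g182551v5 is not known as a target of CRR1 and CHLRE_09g390023v5 is the locus of CRR1 itself. None of these 5 passed limma's test for treatment over all clones, in either direction, and 1 had an unadjusted p under 0.05, as did 11.4% of all clones. Their median was 0.010 and 1 of 5 lay below 0, against 47.4% of all clones. The 4 clones of CRD1, CPX1 and HYDA1, all below 0, were chosen with these values known, so their count is no comparison. Over all 9 clones of the list the median was -0.013, with 5 below 0. Without CHLRE_03g182551v5 and CHLRE_09g390023v5, 1 of the 3 other clones lay below 0. The median over the 7 clones left was -0.025, with 5 below 0. Membership of the list came from background knowledge and was not tested here. The medians over 9 and 7 clones include the 4 clones chosen with these values known, so they are a description only. The other clones alone lay on both sides of 0, with and without those loci.

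CHLRE_03g182551v5 had the largest mean of these 5. It read -0.078, 0.34, 0.20 and 0.47 on slides 1 to 4, above 0 on all but slide 1. The mean was 0.23 ± 0.14 (SD, n = 2; limma adjusted p = 0.247). Its unturned mean was -0.17 ± 0.051 (SD, n = 2), so its sign depends on the turning. This SD leaves out the spread between the 2 slides of a pair, and unturned slide 3 lay above 0, at 0.20. It passed in 1 alternative, a fit of 3 slides without slide 1, at 0.30 (limma adjusted p = 0.0138). In that fit the variance was treated as known, and 106 of 2597 clones passed.

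CHLRE_09g396600v5 averaged 0.082 ± 0.15 (SD, n = 2; limma adjusted p = 0.819). It read -0.18 on slide 1 and between 0.082 and 0.30 on the others. CHLRE_06g296700v5, CHLRE_09g390023v5 and CHLRE_17g700950v5 had means of 0.010 ± 0.12, 0.0084 ± 0.13 and -0.013 ± 0.090 (SD, n = 2 each), and limma gave adjusted p-values of 0.994, 0.995 and 0.988. Each of these 3 lay below 0 in replicate 1, at -0.076, -0.086 and -0.076, and above 0 in replicate 2, at 0.096, 0.10 and 0.051. Of 18 listed tetrapyrrole genes, CRD1 and CPX1 alone were named on the slides, so the rest of that pathway is not described here.

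Biological replicate 2 was higher than replicate 1 for all 9 clones of the list, the 4 of CRD1, CPX1 and HYDA1 and the 5 others. The difference was 0.24 for CRD1, 0.033 for CPX1, 0.084 for HYDA1 clone a and 0.12 for clone b, and between 0.13 and 0.22 for the others. Over all clones, 50.5% were higher in replicate 2, and over the named ones 64.1%. All 9 lay below 0 on slide 1, as did 50.0% of all clones and 63.1% of the named ones. Slide 1 is part of replicate 1, so the 2 observations are not separate. The 4 clones of CRD1, CPX1 and HYDA1 were chosen with these values known. The pattern was seen in the data and was not tested. A difference as large as that of CRD1, in either direction, was exceeded by 9.98% of the other clones, and that of CPX1 by 78.9%.

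**Figure D3:**
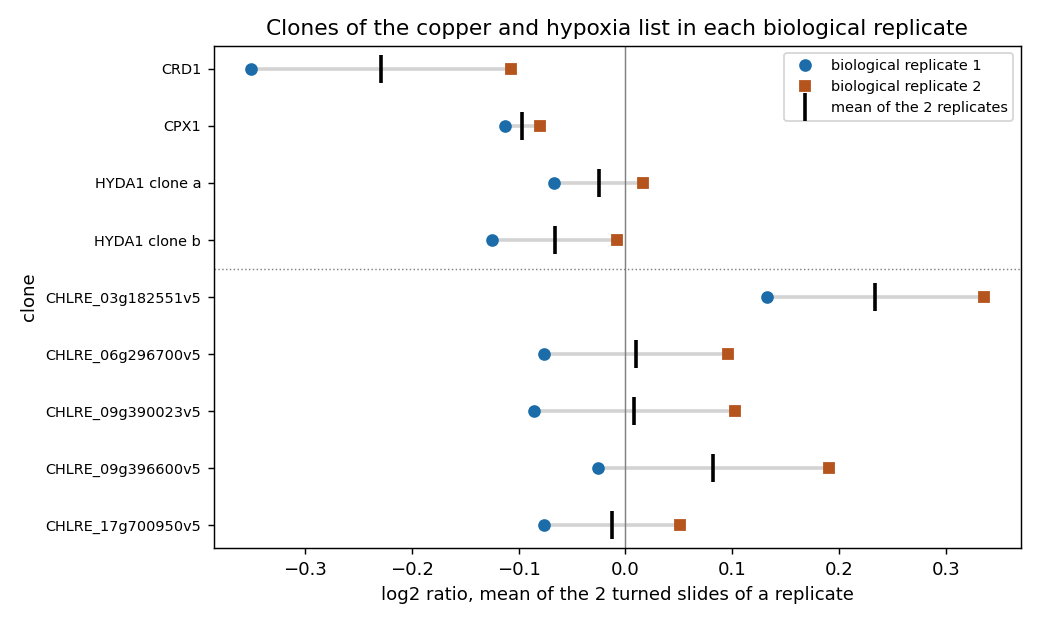
Mean of the 2 turned slides of biological replicate 1 (circles) and 2 (squares), and their mean (black bars), on the log2 scale (horizontal axis), for the 4 clones of CRD1, CPX1 and HYDA1 and, under the dotted line, the 5 other clones of the copper and hypoxia list. Replicate 2 lies to the right of replicate 1 in each row, and only CRD1, CPX1 and HYDA1 clone b have both replicates below 0.

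The named clones whose 4 slide values lay closest to those of each clone were sought by the root mean square difference over the 4 slides. For CRD1 these were CHLRE_10g435800v5, CHLRE_11g467569v5 and CHLRE_13g590500v5, at differences of 0.086, 0.12 and 0.13. CHLRE_10g435800v5 read -0.35, -0.21, 0.090 and -0.11 on slides 1 to 4, so like CRD1 it was lowest on slide 1. CHLRE_11g467569v5, at -0.34, -0.39, -0.17 and -0.19, was farther below 0 than CRD1 on slides 2 and 3. For CPX1 they were CHLRE_06g267200v5, CHLRE_02g092850v5 and HYDA1 clone a (0.084, 0.098 and 0.098). HYDA1 clone a was closest to CHLRE_09g405850v5, CHLRE_03g204650v5 and CHLRE_17g698000v5 (0.040, 0.058 and 0.060), and clone b to CHLRE_16g673109v5, CHLRE_03g146247v5 and CHLRE_11g467668v5 (0.072, 0.080 and 0.083). Of all printed clones with values, 6 were closer to CRD1 than its nearest named clone, against 71 for CPX1, 19 for clone a and 65 for clone b. Closer to CPX1 than HYDA1 clone a were 136 clones.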

How the data were processed

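The authors deposited 1 log ratio per spot and slide, read here as log2 from the spread of the values. The log base, dye order, scanner, background correction and normalization are not given in the sources used here. The deposited columns had medians within 0.01 of 0. Treated and untreated dyes, and the pairing of slides into biological replicates, are per the labels and the design text. As deposited, the dye-swap pairs correlated at -0.39 and 0.025 over 2597 clones, and at -0.92 and -0.64 over the 61 clones that reached 0.7 in size on any slide. Rank correlations over all clones were -0.022 and 0.27, which do not favour turning. Slides 2 and 4 were turned because the genes were chosen on that reading, and the correlations do not settle it.

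Genes were matched by identifier. The 4 spots of a clone were averaged per slide, each slide was centred on its median clone, and the turned slides of a dye-swap pair were averaged (n = 2). Over all clones, limma 3.58.1 (R 4.3.3) tested the replicate mean against 0, two-sided, by eBayes after lmFit with Benjamini-Hochberg adjustment. On simulated data with 200 of 2597 clones changed, the test recovered 51.6% of log2 changes of 0.25 and 97.9% of those of 0.5. In the simulation 8.59% of calls were false, more than the adjusted p threshold is meant to allow. On the slides only 21 clones passed, the smallest at a size of 0.37, while 33 clones with a mean of larger size did not. The simulated shares therefore do not give how often a change of the size of CRD1 would pass on these slides. Precision is limited by having only 4 arrays. The genes and lists were chosen with earlier results of these data known. Named genes are the 3 described, the listed genes present on the slides, and for each clone the 3 nearest named clones over the 4 slides. The other genes with several clones, CHLRE_01g010000v5 and CHLRE_06g259900v5, were named after their values were seen. No genome build is named for the files, so no coordinates are given.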

Additional observations from a re-analysis of the deposited data

How the results depend on the processing

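Against 21 clones passing for treatment, limma passed 1 where each slide needed 3 spots, 47 with the median of spots, 91 with slides scaled, 27 without centring, 45 with 4 slides as separate samples, 73 with the replicate block beside the dye term, 10 with robust moderation, 40 at an adjusted p of 0.1, 63 to 178 without 1 slide, and 0 with no slide turned (568 with an unadjusted p under 0.05). In 12 of these 13 alternatives none of the CRD1, CPX1 and HYDA1 clones passed. The clones were chosen with these values known, so this count is a description and no test of them. Without slide 3, where 178 of 2597 clones passed and the variance was treated as known, CRD1 did, which is no test of it since its treatment values led to its choice. The 0 clones passing for the unturned mean became 29 with the median of spots and 22 to 125 without 1 slide. With no slide turned, CRD1 was at -0.0065 and CPX1 at 0.037. Values given without 1 slide come from the fit with a dye term. Leaving out a slide or a replicate gave -0.35 to -0.11 for CRD1 and -0.13 to -0.060 for CPX1. It gave -0.067 to 0.017 for HYDA1 clone a and -0.12 to -0.0080 for clone b. The other alternatives, print centring among them, moved these 4 means by less than 1 SD. The unturned mean of CRD1 was 0.016 with the median of spots, 0.0025 without centring, 0.014 with scaling and -0.12 to 0.10 without 1 slide, and that of clone a -0.0046 to 0.041. With no slide turned, CHLRE_03g182551v5 was at -0.17 and CHLRE_09g396600v5 at -0.023. CHLRE_09g390023v5 was at -0.018 with the print centred. Without 1 slide, CHLRE_06g296700v5 spanned -0.068 to 0.088, CHLRE_09g390023v5 -0.068 to 0.085, CHLRE_09g396600v5 -0.037 to 0.20 and CHLRE_17g700950v5 -0.058 to 0.033. The cause was not tested. Alternatives for the unturned means and the other listed genes were added after seeing the data. The 2 replicates and the spread between spots limit what differences of the size of CPX1 and HYDA1 can show.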

Other observations

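CRD1 and HYDA1 clone a were printed in the same print column, the thirteenth of 18, and CPX1 and HYDA1 clone b in the eleventh. The median clone of those columns had a turned mean of 0.0013 and 0.013 and an unturned mean of 0.020 and -0.0078. The unturned mean of HYDA1 clone a, 0.018, was close to the median of its column. Those of CRD1 (-0.0065), CPX1 (0.037) and HYDA1 clone b (-0.083) were farther from theirs. The part of print position in the 4 clones' values was not tested beyond the centring of the print. Among the 4 slide values of HYDA1 clone b, the gap from slide 1 to the nearest other slide was 0.749 of the whole range. This was under Dixon's critical value for 4 values. That criterion takes the values as independent, but the slides of a pair share a biological replicate, so it settles nothing about slide 1.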
